A study of Mus musculus with 4 samples.

Results

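Mitosis is carried out by a set of proteins whose genes are transcribed late in the division cycle, and 40 of these genes are described here in cells sorted from tumors of humanized mice. The members were chosen by name from a list of mitosis genes. The choice applied no cutoff on measured values, but earlier results of these data were known when it was made. All 40 were found among the 36601 genes of the count table. They were CDK1, CCNA2, CCNB1, CCNB2, CDC25C and CDKN3 of the cyclin-dependent kinase module, the mitotic kinases PLK1, AURKA, AURKB, NEK2, TTK, BUB1, BUB1B and PBK, the chromosome structure genes TOP2A, MKI67 and NCAPG, the centromere and kinetochore genes NUF2, NDC80, CENPA, CENPE, CENPF, SGO1 and BIRC5, the spindle genes KIF11, KIF18B, KIF2C, KIF4A, TPX2, HMMR, DLGAP5, ASPM and GTSE1, the midzone and cytokinesis genes KIF20A, KIF23, ANLN, ECT2 and PRC1, and CDC20 and UBE2C, which act with the anaphase-promoting complex.

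The cells came from 14 MISTRG mice, 7 untreated and 7 given the drug maraviroc in drinking water. Every mouse was irradiated as a pup, engrafted with CD34+ cells of human fetal liver and later injected in the mammary fat pad with MDA-MB-231 cells, a human breast carcinoma line. Cells of each tumor were tagged with an antibody hashtag, and human CD45+ cells were then sorted and pooled in 2 reactions of droplet 3' RNA-seq. Reaction 1 held 3 maraviroc and 4 untreated mice, reaction 2 held 4 maraviroc and 3 untreated mice, and the names of the hashtags in the deposited feature lists gave the treatments. The organism given with the samples is mouse, the host, whereas the counted genes are human.

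Entry into mitosis is driven by CDK1 bound to cyclin A or cyclin B, and the Polo-like and Aurora kinases then act on the centrosomes, the kinetochores and the spindle. The anaphase-promoting complex with its activator CDC20 ends mitosis by marking cyclin B and securin for destruction, after which the cleavage furrow divides the cell. Transcripts of these genes are low in resting cells and high in cells in G2 and mitosis, so in tumor tissue they mark cells in division, among them stimulated lymphocytes and local macrophages that renew themselves.

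After demultiplexing and filtering, 19817 cells were kept, 11917 in reaction 1 and 7900 in reaction 2, or 758 to 3030 cells and 5996882 to 14782548 UMIs (unique molecular identifiers, each counting 1 captured transcript) per mouse. The reactions differed in depth, with a median of 3020 UMIs per kept cell in reaction 1 and 9692 in reaction 2, and they shared 136 of 29120 and 13582 cell barcodes. Marker UMIs put 52.9% of the cells of reaction 1 and 78.8% of those of reaction 2 in 1 of 8 classes. The classes were NK-like (1859 cells), CD8 T-like (713), regulatory T-like (925), other T-like (896), macrophage-like (4540), monocyte-like (3172), dendritic-like (300) and tumor-like (124), and the names are used below without "-like". The lists used to draw the classes largely separated them, as they had to. NK markers had a median of 15582 CPM (counts per 1000000 UMIs of the summed cells of 1 mouse) in the NK class and at most 538 elsewhere. Macrophage markers had 7660 in macrophages against 1862 in monocytes, and tumor markers 3405 in the tumor class against at most 64.5 elsewhere. T markers were less separate, with a median of 591 CPM in the NK class. They had 2001 to 2513 CPM in the T classes and at most 11.4 in the remaining classes. PTPRC, which encodes the sorted antigen CD45 and drew no class, had a median of 61.2 CPM in the tumor class and of 896 to 2207 CPM in the other classes.

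The mitosis genes were highest in the lymphocytes that kill their targets. The summed level of the 40 members had a lowest, median and highest value of 2287, 3189 and 4511 CPM over 14 mice in NK cells, and of 1933, 2645 and 3588 CPM over 10 mice in CD8 T cells. Regulatory T cells reached 802, 1442 and 2915 CPM (11 mice), macrophages 765, 1129 and 2000 CPM (14 mice) and other T cells 211, 869 and 1800 CPM (12 mice). Monocytes, at 95.2, 428 and 803 CPM (14 mice), and dendritic cells, at 58.7, 227 and 707 CPM (11 mice), were at the low end. The tumor class spanned 212, 2004 and 4590 CPM over 6 mice, each with only 10 to 18 of these cells. A lower sum may come from fewer cells with the transcripts or from fewer transcripts in each, which a sum over cells cannot tell apart.

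Neighbours in this order often overlapped. NK cells were above CD8 T cells in 7 of 10 mice with both classes, regulatory T cells above macrophages in 8 of 11, and macrophages above other T cells in 8 of 12. The lower steps were clearer, with other T cells above monocytes in 11 of 12 mice and monocytes above dendritic cells in 10 of 11. The tumor class stood above regulatory T cells in 3 of 5 mice and above CD8 T cells in 3 of 4, although its median over mice was below that of CD8 T cells, so its place was not fixed.

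**Figure D1:**
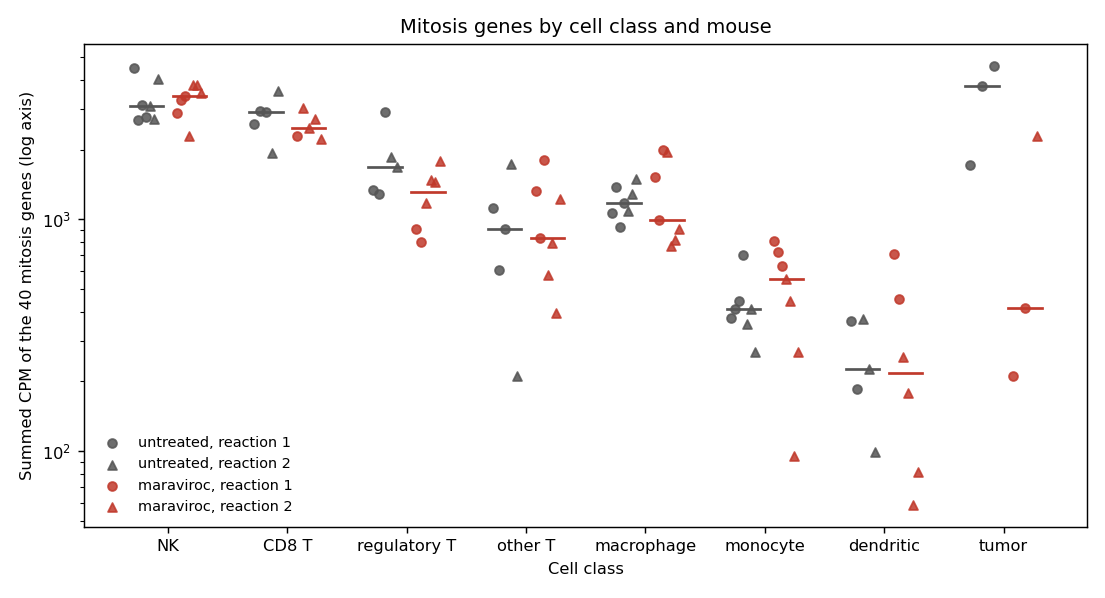
Summed CPM of the 40 mitosis genes (log axis) in each cell class; each point is 1 mouse with at least 10 cells of the class, grey for untreated and red for maraviroc, circles for reaction 1 and triangles for reaction 2, and the short lines are medians. NK cells span 2287 to 4511 CPM and monocytes 95.2 to 803 CPM, without overlap, while the points of both treatments overlap in each class apart from wide scatter in the tumor class.

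Single members followed the sum. Among the 7 immune classes, 37 of the 40 members had their highest median in NK cells, and the other 3, CCNA2, CDC20 and CENPA, in CD8 T cells. Dendritic cells held the lowest median for 36 members and monocytes for 4. The counts behind these levels ranged from 55248 member UMIs in macrophages and 43541 in NK cells to 1768 in the tumor class and 1008 in dendritic cells, so values of the last 2 classes are coarse. Levels are compared here between classes for each gene and not between genes.

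CDK1, the kinase that starts mitosis, had a lowest, median and highest level of 49, 67.4 and 94.5 CPM in NK cells and of 9.3, 39.9 and 77.7 CPM in macrophages. Its medians were 49.8 CPM in CD8 T cells, 34.5 in regulatory T cells, 18.5 in other T cells, 14.4 in monocytes and 5.81 in dendritic cells. CCNB1, which encodes cyclin B1, its partner, was at 20, 51.8 and 78.7 CPM in NK cells, with medians of 47.7 CPM in CD8 T cells, 25.8 in regulatory T cells, 21.6 in macrophages, 8.0 in monocytes and 61.2 in the tumor class. CDKN3, a phosphatase that acts on cyclin-dependent kinases, was at 47.2, 74.8 and 110 CPM in NK cells, 44.9, 68.6 and 105 CPM in CD8 T cells and 16.5, 29.2 and 47.8 CPM in macrophages. Its NK and macrophage ranges met only at their ends, whereas those of CDK1 and CCNB1 overlapped more widely.

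Among the kinases, PLK1, which matures centrosomes and triggers mitotic entry, was at 10.7, 23.6 and 37.6 CPM in NK cells and 7.33, 13.1 and 25.9 CPM in macrophages. AURKB, the kinase of the chromosomal passenger complex that corrects chromosome attachment, was at 29.1, 48.6 and 81.1 CPM in NK cells, with medians of 39.3 CPM in CD8 T cells, 21.1 in regulatory T cells, 18.8 in macrophages and 5.2 in monocytes. BIRC5 (survivin), a subunit of the same complex, was at 40.9, 76 and 108 CPM in NK cells and 19.5, 38.2 and 53.5 CPM in macrophages. PBK, a mitotic kinase found in proliferating cells, behaved unlike the others: it had 15, 28.9 and 42.5 CPM in NK cells and 0.545, 1.42 and 5.02 CPM in macrophages, with no overlap, and the macrophage value rested on 82 UMIs although macrophages gave the most member UMIs of all classes.

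TOP2A, the topoisomerase that untangles sister chromatids, was at 164, 284 and 391.7 CPM in NK cells and 214, 259.6 and 355 CPM in CD8 T cells. Its medians were 120.4 CPM in macrophages, 94.4 in regulatory T cells, 73.4 in other T cells, 37.6 in monocytes and 9.6 in dendritic cells. MKI67, whose product Ki-67 coats mitotic chromosomes, was at 241, 338 and 494 CPM in NK cells and 83.1, 135 and 211 CPM in macrophages, so that the lowest NK sample lay above the highest macrophage sample. CENPF, a large kinetochore protein, had the same separation, with 227, 312 and 477 CPM in NK cells against 79.4, 114 and 182 CPM in macrophages, and fell to a median of 41.3 CPM in monocytes and 5.81 CPM in dendritic cells.

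KIF20A, a kinesin of the central spindle needed for cytokinesis, was sparse, at 2.72, 8.16 and 20.8 CPM in NK cells (126 UMIs) and 3.66, 6.19 and 13.1 CPM in macrophages (311 UMIs), and no KIF20A UMI was seen in the 300 dendritic cells. CDC20, the activator of the anaphase-promoting complex, was at 18.2, 29.7 and 58.6 CPM in NK cells and 15.4, 40.8 and 51.5 CPM in CD8 T cells, with a median of 16.5 CPM in macrophages and 7.07 CPM in monocytes. UBE2C, the ubiquitin-conjugating enzyme of that complex, was at 55.4, 99.5 and 119.6 CPM in NK cells, against 4.13, 25.1 and 60.8 CPM in macrophages. Ranges of NK and CD8 T cells overlapped for KIF20A, CDC20 and UBE2C.

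**Figure D2:**
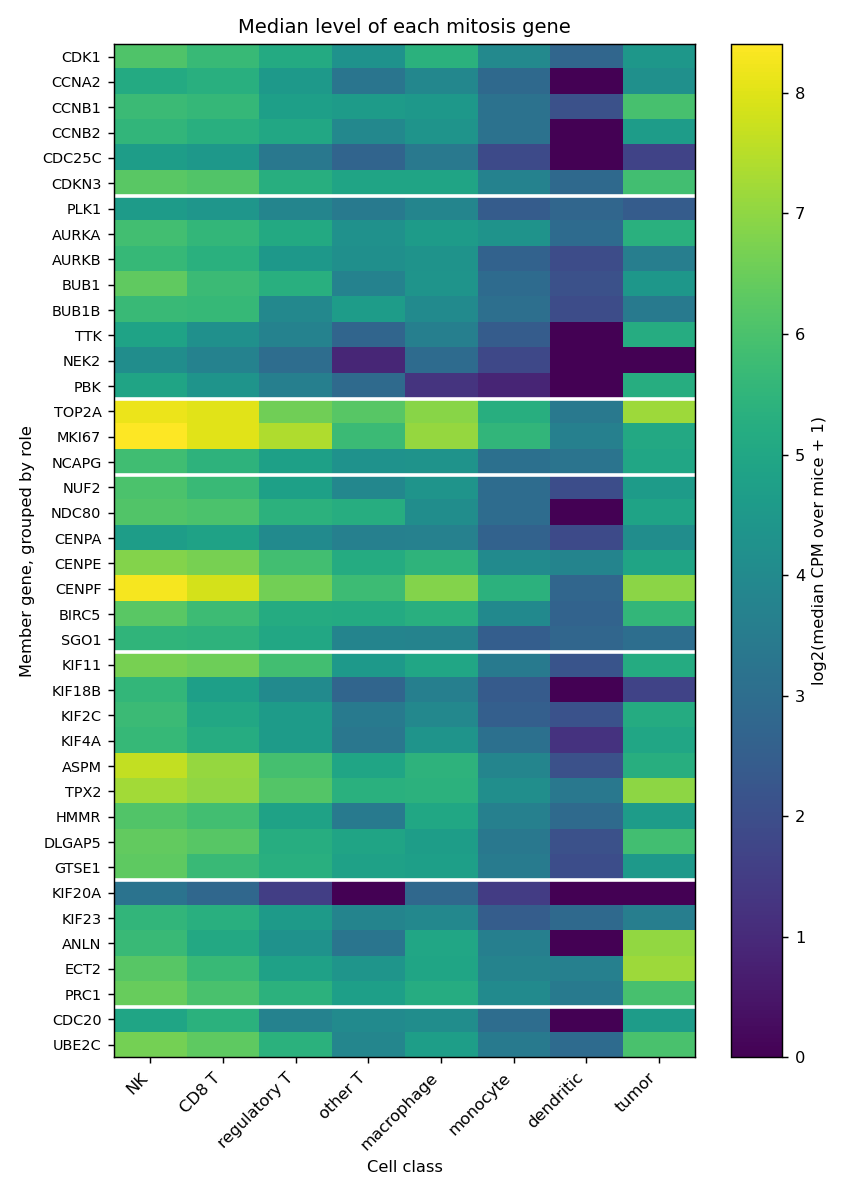
Median level of each of the 40 mitosis genes over mice, as log2(median CPM + 1), in the 8 cell classes, with the genes grouped by role and the groups divided by white lines. The NK and CD8 T columns are brightest for most genes (37 of 40 have their highest immune median in NK cells), PBK is near 0 in the macrophage column, with a median of 1.42 CPM, and the dendritic column is darkest.

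The classes were compared gene by gene with edgeR's quasi-likelihood test on 92 class-by-mouse sums, with the mouse as a block and Benjamini-Hochberg adjustment over 11408 genes. The filter on low counts passed 39 of the 40 members, all but KIF20A. Each contrast is given with the share of all tested genes that passed in the same direction.

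Between NK and CD8 T cells few members differed. In NK cells 3 of 39 members rose above CD8 T cells and none fell, where 9.34% of all genes were higher, so the members' share was near the background. The 3 were KIF18B, a kinesin that trims astral microtubules (log2 fold change 0.75 ± 0.25 SE, adjusted p = 0.0289), BUB1, a kinase of the spindle checkpoint (0.58 ± 0.20, adjusted p = 0.0285), and ECT2, the exchange factor that activates RhoA at the furrow (0.49 ± 0.18, adjusted p = 0.0472). NEK2, a centrosome kinase, and PBK had larger differences but also larger errors, at 0.82 ± 0.33 and 0.64 ± 0.25, with adjusted p = 0.0772 and 0.0748. At the other end stood CENPA, the histone variant of centromeres, at -0.10, CDC20 at -0.03 and CCNA2 (cyclin A2) at -0.02. The median of the members was 0.36 against 0.02 for all tested genes, and 35 members were above 0. An unadjusted p under 0.05 was reached by 14 of 39 members and by 3059 of all 11408 genes. The count depended on the processing: it was 0 when cells above the upper limit of genes were kept, 8 with a stricter gate on the classes and 19 without the filter on low counts. The share of all genes called under each of these settings is not given here, so these counts cannot be set against the 9.34%.

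Regulatory T cells had less of these transcripts than CD8 T cells: 19 of 39 members fell and none rose, where 17.5% of all genes were lower. BUB1B, the checkpoint protein BubR1, showed the largest difference, with a log2 fold change of -1.71 ± 0.31 (adjusted p = 4.32e-06), from a median of 48.6 CPM in CD8 T cells (9.37 to 96.2) to 14.1 CPM in regulatory T cells (5.89 to 25.8). CDC20 fell by 1.08 ± 0.34 (adjusted p = 0.0076) and CENPF by 1.04 ± 0.28 (adjusted p = 0.00186). The smallest differences were those of SGO1, the protector of centromeric cohesion, at 0.04, NEK2 at -0.15 and PLK1 at -0.17. By role, all 3 chromosome structure genes and all 4 tested midzone genes fell, with 3 of 7 centromere genes, 4 of 9 spindle genes, 2 of 8 kinases, 2 of 6 genes of the cyclin-dependent kinase module and 1 of the 2 genes of the anaphase-promoting complex. TOP2A was lower by 0.93 on the log2 scale (adjusted p = 0.00349) and MKI67 by 0.59 ± 0.23 (adjusted p = 0.0344), while CDK1, at -0.29, did not pass (adjusted p = 0.467). The median was -0.59 against -0.04 for all tested genes.

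Other T cells, which had neither CD8 nor FOXP3 UMIs, were lower still. Of the 39 members 37 fell relative to CD8 T cells, where 9.08% of all genes were lower, and the median was -1.25. ASPM, a protein of spindle poles, fell by 1.71 ± 0.28 (adjusted p = 1.48e-06), MKI67 by 1.69 ± 0.25 (adjusted p = 1.34e-07) and KIF23, a kinesin of the midzone, by 1.62 ± 0.34. The genes nearest to CD8 T cells were BIRC5 at -0.65 (adjusted p = 0.0528), SGO1 at -0.82 and CCNB1 at -0.83, and NEK2 (-1.25, adjusted p = 0.053) was the other member that did not pass. The class was called from an absence of UMIs and was shallower than CD8 T cells in reaction 1, with a median of 3035 against 6315 UMIs per cell. In reaction 2 the medians were 6602 and 6294 UMIs. In that reaction alone 30 of 40 tested members were lower, with a median of -1.33, and the share of all genes in that fit is not given here. The part of depth, and of a class drawn from absent UMIs, was not tested in either reaction.

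In the myeloid cells the macrophages carried the mitosis genes. Relative to monocytes 38 of 39 members rose in macrophages, where 28% of all genes were higher. TOP2A rose by 1.70 ± 0.22 on the log2 scale (adjusted p = 2.09e-10), from 6.95, 37.6 and 68.6 CPM in monocytes to 46.5, 120.4 and 230.5 CPM in macrophages. ASPM rose by 1.66 and AURKB by 1.64 ± 0.22, CENPF by 1.64, CDK1 by 1.52 and MKI67 by 1.43 (adjusted p = 3.66e-10). The smallest differences were 0.29 ± 0.15 for AURKA, the spindle pole kinase and the only member that did not pass (adjusted p = 0.0999), 1.002 for CENPA and 1.03 ± 0.37 for PBK (adjusted p = 0.0144). AURKA was at 11, 23.5 and 34.2 CPM in macrophages and 8.3, 18.8 and 28.8 CPM in monocytes, so the ranges overlapped almost fully. The median was 1.40 against 0.03 for all tested genes. With DESeq2's size factor method in place of TMM the median of all genes moved to 0.12 and that of the members to 1.5. The split of all called genes then went from 3198 higher and 2854 lower to 4056 higher and 2176 lower, and 39 members were higher.

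Macrophages were further apart from dendritic cells, with 36 of 39 members higher, where 30.8% of all genes were higher. KIF18B (3.78 ± 0.74, adjusted p = 9.51e-06), CENPF (3.38 ± 0.45, adjusted p = 4.76e-10) and CDC25C, the phosphatase that activates CDK1 (3.01 ± 0.68), differed most. The members nearest to 0 were KIF23 at 0.11 ± 0.37 (adjusted p = 0.837), SGO1 at 0.73 ± 0.34 (adjusted p = 0.0603) and ECT2 at 0.95, and PBK, at 1.70 ± 0.91, also did not pass (adjusted p = 0.111). KIF23 stood at 0, 6.4 and 48.2 CPM in dendritic cells (56 UMIs) and at 2.07, 14.1 and 29.2 CPM in macrophages. The median of the members was 2.15 against 0.15 for all tested genes. These log2 values of low genes depend on the few member UMIs of the dendritic class.

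Set against NK cells, macrophages were lower in 36 of 39 members, where 38.4% of all genes were lower. PBK fell by 3.58 ± 0.23 on the log2 scale (adjusted p = 4.77e-25), ASPM by 1.80 ± 0.19 (adjusted p = 8.76e-15; 25.8, 42.1 and 82.4 CPM against 122, 199 and 269 CPM) and KIF18B by 1.75 ± 0.19. The genes that did not pass were ANLN, which encodes the furrow scaffold anillin (-0.21 ± 0.20, adjusted p = 0.325), CDK1 (-0.35 ± 0.18, adjusted p = 0.0616) and PLK1 (-0.37 ± 0.20, adjusted p = 0.0865). ANLN stood at 8.27, 30.4 and 55.5 CPM in macrophages and 26.3, 51.1 and 63.3 CPM in NK cells, with wide overlap. The median was -1.07.

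In the tumor class, relative to macrophages of the same tumors, 9 of 39 members rose, where 19% of all genes were higher, and 1 fell, where 32.6% of all genes were lower. The share that rose was near the background, and with a stricter gate on the classes, which left 1 mouse with enough tumor-class cells, 0 members were called. The members that rose were PBK (3.68 ± 0.53, adjusted p = 7.15e-09), ECT2 (1.96 ± 0.28, adjusted p = 4.97e-09), UBE2C (1.91 ± 0.46, adjusted p = 0.000294), DLGAP5, a spindle assembly factor (1.503), ANLN (1.29), CCNB1 (1.26), CDKN3 (1.15), the kinetochore gene NDC80 (1.06) and AURKA (0.92). MKI67 fell by 1.58 ± 0.48 (adjusted p = 0.00385), from 83.1, 135 and 211 CPM in macrophages to 0, 32.7 and 161 CPM in the tumor class. The other members at the low end were HMMR, a spindle and hyaluronan binding protein, at -1.22 ± 0.69 (adjusted p = 0.136), and the kinetochore kinesin CENPE at -0.69. The median was 0.20 against -0.32 for all tested genes, which DESeq2's size factor method moved to 0.47 and -0.05, with 10 members higher and 1 lower. The same change moved the split of all called genes from 2170 higher and 3723 lower to 2752 higher and 2899 lower. Keeping the cells above the upper limit of genes turned the median to -0.35, with 6 members higher and 9 lower. The median and counts of all genes in that fit are not given here, so these values cannot be set against a background. No direction of the whole list is drawn for this class.

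**Figure D3:**
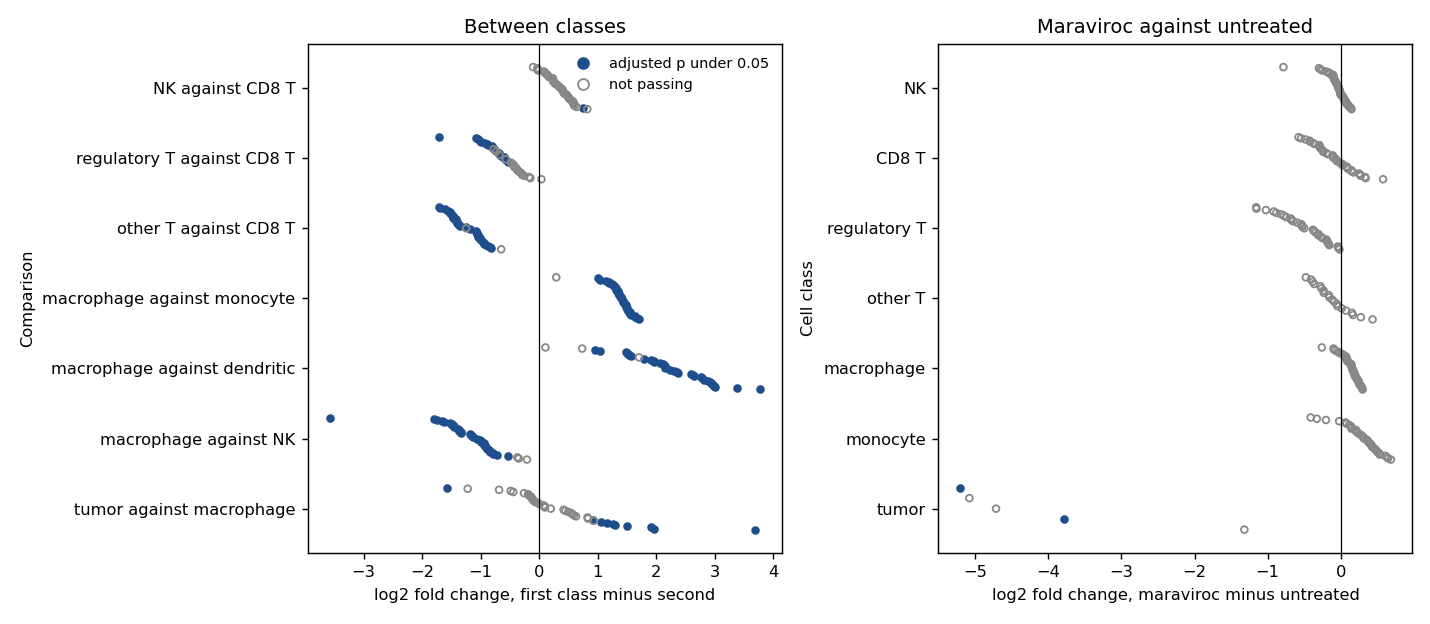
Log2 fold change of each tested mitosis gene between classes (left, first class minus second) and between maraviroc and untreated mice within each class (right); filled points have an adjusted p under 0.05 in edgeR's test over all genes and open points do not. In the left panel 38 of 39 genes lie filled above 0 for macrophages against monocytes and 36 of 39 filled below 0 for macrophages against NK cells, and in the right panel filled points appear only for 2 genes of the tumor class.

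Lists of other genes of the division cycle were counted in the same contrasts. Of 34 other mitosis genes, 33 rose in macrophages relative to monocytes (median 1.20), among them CIT (1.73), TROAP (1.69), DEPDC1 (1.67) and CCNF (1.54). All 20 genes of S phase, the DNA copying step before mitosis, rose as well (median 0.95), with POLE2 at 1.28, TK1 at 1.20, UHRF1 at 1.13 and CDC6 at 1.08. Of 15 regulators of mitotic transcription 8 rose and 2 fell, with FOXM1, the forkhead factor of G2 genes, at 1.75 ± 0.19, E2F8 at 1.68, MYBL2 at 1.40 and E2F1 at 0.97. Of 7 tested G1 cyclins and kinases 5 rose and 2 fell, and the D-type cyclins went in opposite directions, CCND1 by 2.40 and CCND2 by -1.73. Of 13 tested inhibitors 3 rose and 5 fell, with CDKN2C at 2.02 and CDKN2D at -1.69. Of all 11408 tested genes 3198 rose and 2854 fell in this contrast, so the counts of inhibitors were near the background.

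The lymphocyte contrasts gave other splits. In macrophages 33 of 34 other mitosis genes and 17 of 20 S-phase genes fell relative to NK cells (medians -1.06 and -1.08; CDC6 -1.77, RRM2 -1.67), and CCND1 (4.45) and CCND2 (-3.71) were again opposed. Relative to CD8 T cells, regulatory T cells had 13 of 20 S-phase genes lower (median -0.73) and 11 of 34 other mitosis genes lower with 2 higher (median -0.48), and 6 of the inhibitors rose with none lower, where 1844 of all 11408 genes were higher, led by CDKN1A (1.57), which encodes p21, and CDKN1B (0.90), which encodes p27. Other T cells had 28 other mitosis genes and 18 S-phase genes lower and none higher. Between NK and CD8 T cells 3 of the other mitosis genes and 1 S-phase gene rose. In macrophages against dendritic cells 30 other mitosis genes (median 1.78) and 17 S-phase genes (median 1.32) rose and none fell. In the tumor class 5 other mitosis genes rose and 2 fell relative to macrophages, where 19% of all genes were higher. In the same contrast 5 of 20 S-phase genes fell and none rose (median -0.97), a share below the 32.6% of all genes that were lower. Of all genes, 38.4% were lower in macrophages than in NK cells and 30.8% higher than in dendritic cells. Relative to CD8 T cells, 17.5% were lower in regulatory T cells, 9.08% lower in other T cells and 9.34% higher in NK cells.

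At the level of single cells, 5 or more members were detected in a minority of the cells of each class. To compare cells across depth, each was thinned to 2000 UMIs and shallower cells were left out. In NK cells 5 or more of the 40 members were detected in 31.3% of cells of reaction 1 and 23.9% of those of reaction 2, with exact (Clopper-Pearson) 95% intervals of 28.1 to 34.8 and 21.0 to 27.0. The shares in reactions 1 and 2 were 21.9% and 16.3% of CD8 T cells, 11.4% and 9.24% of regulatory T cells, 18.8% and 6.42% of other T cells, 16.7% (15.1 to 18.4) and 12.4% (10.9 to 13.96) of macrophages, and 7.86% and 2.62% of monocytes. Dendritic cells, the class with the lowest share, had 4.04% (1.11 to 10.0) and 0.995% (0.121 to 3.55). The intervals cover counting error only. NK cells were thus far above the dendritic level in both reactions, whereas the interval of dendritic cells included the share of monocytes in each reaction.

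Depth entered these shares in several ways. Without thinning, the pooled shares were 39.2% in NK cells, 30.6% in CD8 T cells, 25.4% in macrophages, 9.65% in monocytes and 8.33% in dendritic cells, against 27.5%, 18%, 14.6%, 5.06% and 2% with it. Median depth in reactions 1 and 2 was 4231 and 7733 UMIs in NK cells, 4265 and 12764 in macrophages, 4000 and 12292 in monocytes, and 12006 and 14515 in dendritic cells. Thinning left out 273 NK cells, 598 macrophages, 377 monocytes and 88 other T cells of reaction 1 and at most 10 cells of each class of reaction 2. Every class had a higher thinned share in reaction 1 than in reaction 2, and the part of the left-out cells in that was not tested. TOP2A by itself was detected in 23.0% and 17.8% of NK cells, 16.4% and 11.6% of macrophages, 7.02% and 2.76% of monocytes and 3.03% and 0.995% of dendritic cells, and MKI67 in 27.8% and 25.7% of NK cells, 16.9% and 13.5% of macrophages and 4.04% and 0.995% of dendritic cells. Over the classes given here, both single genes kept the order of the list.

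Most cells showed none or few members. No member was detected in 37.6% of NK cells, 47.9% of CD8 T cells, 59.8% of regulatory T cells, 56.4% of other T cells, 56.6% of macrophages, 75.7% of monocytes and 77% of dendritic cells. At the other end 15 or more members were detected in 5.77% of NK cells, 4.64% of CD8 T cells, 1.66% of regulatory T cells and 1.63% of other T cells. A single NK cell reached 26 members, and the highest cell had 23 in CD8 T and regulatory T cells and 22 in other T cells.

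**Figure D4:**
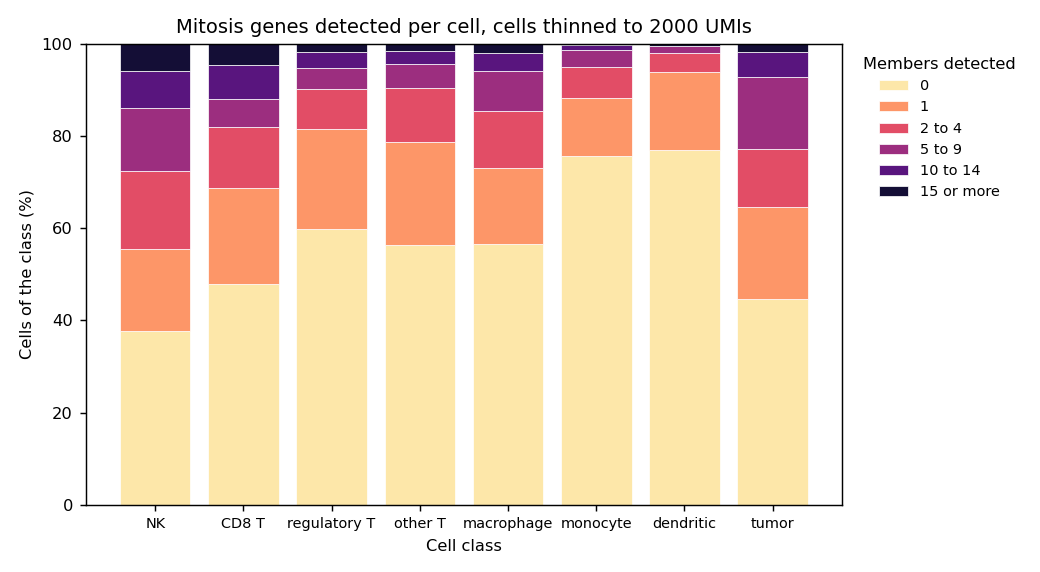
Share of cells (%) of each class by the number of the 40 mitosis genes detected, after thinning each cell to 2000 UMIs; each bar is a class, both reactions pooled, and darker segments stand for more members. Cells with 0 members make up 37.6% of NK cells and 75.7% of monocytes, and cells with 15 or more reach 5.77% in NK cells.

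Cells with 5 or more members held most of the transcripts. The 434 such NK cells of 1576 held 88.1% of the member UMIs, and the shares were 85.4% for 124 of 689 CD8 T cells, 81.9% for 88 of 904 regulatory T cells, 76.2% for 576 of 3936 macrophages and 65.2% for 141 of 2785 monocytes. The 6 dendritic cells of 300 held 35.8%. Since these cells were picked by the members, that concentration is a description, whereas genes outside the list took no part in the pick. The median full depth of member-high and other cells was 6439 and 6086 UMIs in NK cells of reaction 1 and 12484 and 6986 in reaction 2, and in macrophages 4981 and 6162, then 15436 and 12446.

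Summed over each list, other mitosis genes and S-phase genes were higher in the member-high cells. The 34 other mitosis genes summed to 5215 CPM in member-high NK cells and 814 CPM in the remaining NK cells, with a median log2 difference of 2.70 and higher values in 14 of 14 mice, and in macrophages to 3976 and 435 CPM (3.17, 13 of 13 mice). S-phase genes summed to 2147 and 1111 CPM in NK cells (1.05, 14 of 14 mice) and 1492 and 410 CPM in macrophages (1.88, 13 of 13). FOXM1 was at 70.2 against 8.54 CPM in NK cells and 69.7 against 7.64 CPM in macrophages, in each mouse in the same direction, and E2F8 at 39.3 against 4.03 and 31.0 against 2.39 CPM. RRM2, the ribonucleotide reductase subunit, was at 444 against 51.5 CPM in NK cells. The other mitosis genes, FOXM1 and E2F8 were thus higher in member-high cells of both classes, but the S-phase list was not uniform. In NK cells RRM2 and TYMS (302 against 103 CPM) rose most in CPM, while MCM2, MCM3, MCM5, MCM6 and GINS2 were lower. In macrophages each S-phase gene was higher.

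G1 genes and inhibitors differed less than the other lists, and not in 1 direction over the classes. The G1 cyclins and kinases were at 745 against 947 CPM in NK cells (median log2 difference -0.32, higher in 1 of 14 mice), were higher in 1 of 7 mice in CD8 T cells (-0.35) and differed by a median of -0.05 in macrophages (higher in 5 of 13). The inhibitors differed by a median of 0.03 in NK cells (higher in 8 of 14 mice), -0.15 in CD8 T cells (2 of 7) and 0.12 in macrophages (11 of 13). CCND2, a D-type cyclin, was at 206 CPM in member-high and 384 CPM in other NK cells (higher in 0 of 14 mice), and CCND1 at 41.5 and 72.5 CPM in macrophages (higher in 0 of 13). Other genes of the G1 list went the other way. CCNE2 was at 30.9 against 16.4 CPM in NK cells (higher in 11 of 14 mice) and 31.7 against 7.87 CPM in macrophages (13 of 13), and CCNE1 and CDK2 were also higher in both classes. CDKN2C, the inhibitor p18, was higher in member-high cells of both classes, at 47.3 against 17.1 CPM in NK cells and 78.9 against 7.34 CPM in macrophages. MCM2, a helicase subunit loaded before S phase, was at 24 against 32.6 CPM in NK cells (higher in 3 of 14 mice), whereas in macrophages it was at 27.6 against 10.2 CPM (higher in 12 of 13 mice). NK markers were lower in member-high NK cells (13163 against 17213 CPM, higher in 0 of 14 mice), and macrophage markers differed by -0.26 in macrophages (higher in 1 of 13).

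Member-high monocytes stood apart in their markers. In the 6 mice with enough such cells, monocyte markers were at 9343 CPM against 15212 CPM in the other monocytes (higher in 1 of 6 mice), macrophage markers at 2533 against 1866 CPM (higher in 5 of 6), NK markers at 134 against 69.9 CPM (higher in 4 of 6) and T markers at 32.9 against 10.1 CPM (higher in 4 of 4 mice with a value). The median depth was 20324 UMIs for member-high and 12250 for other monocytes of reaction 2, and 4314 and 5865 in reaction 1. The part of doublets and of depth in the monocyte values was not tested in these cells.

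Among member-high cells, the members split by S-phase transcripts. In macrophages, 130 member-high cells had no S-phase UMI at 2000 UMIs and 240 had 3 or more. CCNB1 was detected in 33.8% of the first and 10.8% of the second, CDC20 in 28.5% and 9.17%, PLK1 in 22.3% and 9.17%, NEK2 in 12.3% and 2.5%, and CENPF in 71.5% and 46.7%. The reverse held for AURKB (7.69% and 22.1%), KIF2C (6.15% and 15.8%), KIF18B (4.62% and 14.6%) and CDK1 (20% and 37.9%), while MKI67 was level (66.2% and 66.7%). In NK cells (59 and 259 cells) CCNB1 (37.3% and 13.9%), CCNB2 (44.1% and 14.3%), CDC20 (32.2% and 9.65%), PLK1 (25.4% and 5.41%) and DLGAP5 (59.3% and 23.9%) lay on the same side as in macrophages. CDK1 (30.5% and 22.0%) and KIF2C (28.8% and 22.4%) did not. In member-high monocytes (16 and 60 cells) CCNB2 (18.75% and 18.3%) and CDC20 were about level. CCNB1 and CENPF lay on the same side there as in macrophages. These shares are descriptions without a test, over cells pooled across mice.

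The mixture of members also differed between macrophages and NK cells once their total was set aside. For each of 14 mice, each member's UMIs were taken as a share of all member UMIs of the class (785 to 7407 UMIs in macrophages, 1607 to 5619 in NK cells), and the difference was tested with an exact two-sided sign-flip permutation test over mice, adjusted over the 40 members tested. The smallest p that 14 mice allow is 0.000122. The share differed for 24 members, 10 with a larger share in macrophages and 14 with a larger share in NK cells. No count over all genes goes with this test, since the shares are defined within the list and sum to 100%, so a rise of some members lowers the others.

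CDK1 made up 3.41% ± 0.749 (SD, n = 14) of member UMIs in macrophages and 2.11% ± 0.407 in NK cells, and was larger in 12 of 14 mice (exact permutation test, adjusted p = 0.00266). ANLN made up 2.70% and 1.49% (13 of 14 mice, exact test, adjusted p = 0.00195), BIRC5 3.07% and 2.22% (adjusted p = 0.00209), PLK1 1.16% and 0.700% (adjusted p = 0.00217) and KIF20A 0.568% and 0.292% (13 of 14 mice, exact test, adjusted p = 0.00244). CDC20, CCNB1, PRC1, HMMR and ECT2 were the other members with a larger share in macrophages. In NK cells ASPM was larger in 14 of 14 mice (5.82% against 3.64%, exact test, adjusted p = 0.00163), as was PBK (0.893% against 0.167%, exact test, adjusted p = 0.00163), and BUB1 made up 2.30% against 1.56%. TPX2, UBE2C, NDC80, KIF18B, BUB1B, NUF2, KIF11, KIF23, KIF2C, DLGAP5 and SGO1 completed the 14. MKI67 (11.05% in macrophages and 10.4% in NK cells, adjusted p = 0.337), CENPF (9.78% and 9.81%, adjusted p = 0.917), TOP2A (9.77% and 8.64%, adjusted p = 0.0924) and AURKB (1.503% and 1.55%, adjusted p = 0.669) did not pass the exact test. Within reaction 1 alone, where 7 mice allow no p under 0.0156, no member passed, and in reaction 2 alone 13 did. Each of the 24 kept its direction in both reactions.

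**Figure D5:**
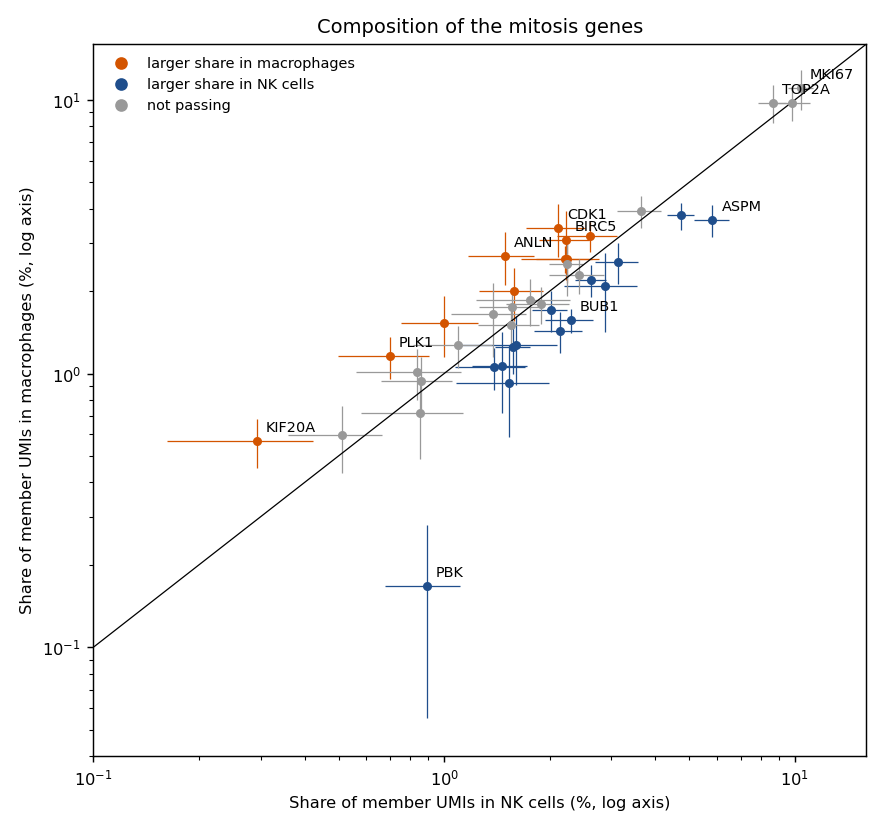
Share of all mitosis-gene UMIs taken by each of the 40 genes in NK cells (x axis, %, log) and macrophages (y axis, %, log); points are means of 14 mice, bars are SD, and the line marks equal shares. Orange and blue points passed the exact sign-flip test (10 with a larger share in macrophages, 14 in NK cells); PBK, at 0.893% and 0.167%, lies farthest below the line, and CDK1 and ANLN lie above it.

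Maraviroc was compared with no treatment within each class over mice, with the reaction as a term. No member passed in NK cells, CD8 T cells, regulatory T cells, other T cells, macrophages or monocytes, where 0% of 6616 to 11264 tested genes passed, and DESeq2 called no member either. At an unadjusted p under 0.05 stood 1 of 39 tested members in NK cells, 12 of 31 in regulatory T cells, and none of 38 in CD8 T cells, 20 in other T cells, 39 in macrophages and 35 in monocytes. Over all tested genes that count was 359 of 8544 in NK cells, 179 of 7414 in CD8 T cells and 341 of 7334 in regulatory T cells. It was 198 of 6616 in other T cells, 410 of 11264 in macrophages and 418 of 10238 in monocytes. No member passed the low-count filter in dendritic cells. These counts do not show that the treatments gave equal levels, and the values per class follow.

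In NK cells the summed level was 2672, 3094 and 4511 CPM (lowest, median and highest of 7) in untreated and 2287, 3403 and 3802 CPM in maraviroc mice. TOP2A was at 222, 255 and 377 CPM and at 164, 292 and 391.7 CPM, and MKI67 at 262, 339 and 494 CPM and at 241, 337 and 408 CPM, so the treatments overlapped almost fully. CENPA was the exception, at 24.7, 29.9 and 50.6 CPM in untreated and 15.9, 19.9 and 24.1 CPM in maraviroc mice, without overlap. Its log2 difference of -0.78 ± 0.18 did not pass the adjustment over all genes (edgeR, adjusted p = 0.695). The median over members was -0.03. In CD8 T cells the sums were 1933, 2913 and 3588 CPM in 5 untreated and 2224, 2471 and 3026 CPM in 5 maraviroc mice, with CDC20 at 0.58 and KIF23 at -0.58 as the extremes.

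Regulatory T cells had all 31 tested members below 0, with a median of -0.50, none past the adjusted threshold. Their sums were 1289, 1682 and 2915 CPM in 5 untreated mice and 802, 1309 and 1780 CPM in 6 maraviroc mice, and so overlapped. KIF2C, a kinesin that removes microtubules from wrongly attached kinetochores, was at 15.3, 31.7 and 48.9 CPM in untreated and 5.89, 16.9 and 26.9 CPM in maraviroc mice (-1.16 ± 0.30, adjusted p = 0.904). HMMR differed by -1.15 ± 0.39 (adjusted p = 0.992), CCNB2 by -1.02 ± 0.33 (31.7, 37 and 82.9 CPM against 0, 17.2 and 32.8 CPM) and CCNB1 by -0.88 ± 0.29 (25.3, 38.8 and 44.6 against 5.89, 20.5 and 28.6 CPM). BUB1B (-0.02), NCAPG (-0.03) and CDK1 (-0.04) were nearest to 0. The level of CCNB1, CCNB2 and KIF2C in most maraviroc samples lay below most untreated samples, but their ranges met.

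That difference varied between reactions and with single mice. Within reaction 1 the sums were 1289, 1333 and 2915 CPM in untreated and 802 and 912 CPM in maraviroc mice, and the median over 23 tested members was -1.20. In reaction 2 they were 1682 and 1852 CPM against 1176 to 1780 CPM, and the median over 38 members was -0.27, with 5 members above 0. Leaving out maraviroc replicate 3 of reaction 1 moved the median to -0.26 and left 5 members at an unadjusted p under 0.05, and leaving out untreated replicate 4 of reaction 1 gave -0.30 and 8. S-phase genes did not share the sign, with a median of 0.15 over 15 tested genes, while 27 other mitosis genes had a median of -0.33.

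Macrophages went the other way without a call: 33 of 39 members were above 0, with a median of 0.16. The sums were 927, 1173 and 1497 CPM in untreated and 765, 994 and 2000 CPM in maraviroc mice, and the median of the sums was lower with maraviroc. The positive values rested on reaction 1, where untreated mice had 927 to 1381 CPM and maraviroc mice 994, 1520 and 2000 CPM (39 of 39 members above 0, median 0.44). In reaction 2, untreated mice had 1086, 1292 and 1497 CPM and maraviroc mice 765, 811, 905 and 1943 CPM (6 members above 0, median -0.13). Without maraviroc replicate 1 of reaction 2 the median was -0.02 with 17 members above 0, and without maraviroc replicate 3 of reaction 1 it was 0.01 with 21. SGO1 (0.30 ± 0.18) and AURKA (-0.26) were the extremes.

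In monocytes the median was 0.32 and 31 of 35 members were above 0. The sums were 269, 412 and 701 CPM in untreated and 95.2, 555 and 803 CPM in maraviroc mice. NCAPG, a condensin subunit, was highest at 0.69 ± 0.36 and AURKA lowest at -0.41 ± 0.20. Reaction 1 alone gave a median of 0.50 and reaction 2 alone 0.08. Other T cells had a median of -0.14 that moved to 0.97, with 19 members above 0, without untreated replicate 1 of reaction 2, and CD8 T cells a median of -0.09 that moved to -0.35 without the same mouse. Without untreated replicate 2 of reaction 2 the CD8 T median was 0.16. Leaving out 1 mouse thus changed the sign of the median in other T and CD8 T cells, while in monocytes it stayed above 0, at 0.19 to 0.47.

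In the tumor class 2 of 5 tested members fell with maraviroc, and DESeq2 also called 2. The 2, TOP2A and ANLN, were the only genes of 1910 tested that passed (0.105%). The low-count filter left most members untested, and TOP2A and ANLN got through it by their level in the untreated mice. The tested genes were thus tilted toward a fall, and the 2 calls cannot show one for the list. TOP2A was at 236, 319 and 444 CPM in 3 untreated mice and at 20.2 and 27 CPM in the maraviroc mice of reaction 1 and 48.4 CPM in that of reaction 2 (log2 fold change -3.79 ± 0.64, edgeR, adjusted p = 0.0351). ANLN was at 193, 203 and 242 CPM against 10.1 and 0 CPM in reaction 1 and 70.3 CPM in reaction 2 (adjusted p = 0.0351). Both genes were lower in each tested maraviroc mouse than in each tested untreated mouse, and mice with fewer tumor-class cells were left out. TPX2, an activator of AURKA on the spindle (adjusted p = 0.0735), CENPF (adjusted p = 0.164) and ECT2 (-1.32, adjusted p = 0.543) did not pass, and TPX2 and CENPF, at 149 and 180.2 CPM in the maraviroc mouse of reaction 2, overlapped the untreated range.

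Since the reaction was a term and reaction 2 gave a single mouse, the tumor test compared 3 with 2 mice of reaction 1. In those mice ANLN had 1 UMI of 210238 with maraviroc and 47 of 214721 without treatment, and TOP2A had 5 and 77 UMIs. Untreated replicate 4 alone gave 24 of the 47 ANLN UMIs and 44 of the 77 TOP2A UMIs. Both genes were called from these same UMIs, so the counts describe the calls and add no support to them. A fitted fold change from so few UMIs depends on the prior count, and none is given for ANLN, TPX2 and CENPF.

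The tumor values rested on 10 to 18 cells a mouse, and the groups were not balanced. All 3 untreated mice were of reaction 1 (summed levels of 1718, 3752 and 4590 CPM), while the maraviroc mice were 2 of reaction 1 (212 and 414 CPM) and 1 of reaction 2 (2290 CPM). The mice left out for having 1 to 7 tumor-class cells had sums of 894, 1052, 289 and 523 CPM when untreated and of 260.2, 680 and 802 CPM with maraviroc, which overlap. With the cells above the upper limit of genes kept, no member was called and TOP2A differed by -0.81.

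Whether the treatment difference itself varied between reactions was tested with an interaction term, which was added after the data had been seen. No member passed in the 5 classes where it could be fitted with members tested. Before adjustment, 7 of 31 members reached 0.05 in regulatory T cells, against 513 of all 7334 genes, a larger share. In macrophages 2 of 39 members did, against 913 of 11264 genes, a smaller share. Other T cells had 2 of 20 members, too few to place, against 349 of 6616 genes. NK cells and monocytes had none of 39 and 35 members, against 244 of 8544 and 785 of 10238 genes. In CD8 T cells the interaction was not fitted.

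The shares of member-high cells were also compared between treatments, as values without a test. Over mice, 20, 28.2 and 43.0% of untreated and 15.5, 25.5 and 40% of maraviroc NK cells had 5 or more members after thinning. The lowest and highest shares were 9.59 and 18.7% against 8.44 and 26.2% in macrophages, 5.26 and 22.6% against 5.63 and 11.9% in regulatory T cells and 2.45 and 8.44% against 0.437 and 11.5% in monocytes. In CD8 T cells they were 9.15 and 28.3% against 11.1 and 21.7%, and in other T cells 0 and 16.7% against 1.37 and 27.3%. These ranges overlapped. In the tumor class they did not, with 40 and 81.25% in 2 untreated mice and 0, 5.88 and 15.4% in 3 maraviroc mice, each of 10 to 17 cells. In the mice with fewer thinned tumor-class cells the shares were 0 to 28.6% when untreated and 0 with maraviroc.

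The genes whose levels most resembled the summed members over the 92 class-by-mouse sums were largely genes of chromosomes. Among 13241 genes with enough UMIs, Pearson's r of the log2 CPM was 0.906 for KIF15, a spindle kinesin, 0.894 for the replication-dependent histone gene HIST1H3B, 0.884 for the condensin subunit SMC2, 0.878 for HMGB1, 0.873 for HMGN2, 0.868 for PCLAF, 0.862 for TYMS, 0.861 for SMC4, 0.858 for HIST1H4C and 0.857 for DIAPH3. Within the list, TOP2A (0.937), DLGAP5 (0.930), GTSE1 (0.920) and CENPF (0.915) were closest to the sum of the other 39 members, and ECT2 (0.594), PLK1 (0.629), CENPA (0.664), SGO1 (0.671) and KIF20A (0.671) least close. The 92 sums share mice, libraries and depth, so these correlations are descriptions.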

How the data were processed

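The authors aligned and counted the reads and deposited UMI counts per gene and hashtag, 1 matrix per reaction, without normalization. The submitters' processing notes name Cell Ranger 9.0.1, Seurat 5.1.0 and GRCh38.

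Hashtags were demultiplexed with Seurat 5.3.0 (quantile 0.99). Cells with 600 to 6000 genes and at most 12.5% mitochondrial UMIs were kept, hashtag doublets and cells with markers of several lineages were removed, and classes were drawn from marker UMIs. Marker limits were set after marker UMIs, but not member genes, had been seen, and the members and lists were chosen with earlier results of these data known. Counts were summed per mouse and class with at least 10 cells. They were tested with edgeR 4.0.16 (filterByExpr, TMM, quasi-likelihood; DESeq2 1.42.0 as an alternative), with Benjamini-Hochberg adjustment at 0.05 over all genes tested, after the scripts were tested on simulated data. Members named throughout were a fixed set of 12 genes and, per contrast, the 3 highest and 3 lowest log2 fold changes, and up to 4 genes of each other list. Genes named for the S-phase split, composition and member-high cells were chosen after their values were seen. The CD34+ donor of each mouse is not given in the sources used here. The p-values of the treatment comparisons measure the spread between mice. Those of the class contrasts and the composition measure the spread, over mice, of differences within a mouse. Promoter sequences were not analysed here.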

Additional observations from a re-analysis of the deposited data

Results flagged for a closer look

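Of 28 groups of 4 to 10 mice examined, 3 held a mouse far from the others. With normally distributed values chance alone flags about 1 in 20 such groups. In untreated monocytes 1 mouse had a summed mitosis-gene level of 701 CPM, where the next was at 445 and the median of 7 mice was 412 CPM. In dendritic cells 1 maraviroc mouse had 9.09% of its cells with 5 or more members, where the next of 6 mice had 2.86% and the median was 0. In the same class 1 untreated mouse had 11.1%, where the next of 5 mice had 2.13% and the median was 0. The dendritic shares rest on 6 member-high cells in all and are mostly 0, so the rate of 1 in 20 does not hold for them.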

How the results depend on the processing

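The counts of members past the threshold moved by over 1.5 times in the comparisons below. They are given without the share of all genes called under the same setting, so they describe only how the count of members moved. For maraviroc against untreated mice without a filter on low counts, 1 member was called in NK cells and 7 in regulatory T cells in place of none. In the tumor class the 2 calls became 0 without the upper limit of genes, 1 without the reaction term and 5 without the filter. For NK against CD8 T cells the 3 members became 0 without the upper limit, 8 with a stricter gate, 19 without the filter, 1 in reaction 1 alone and 0 in reaction 2 alone. For regulatory T cells the 19 became 1 and 8 in reactions 1 and 2 alone, for other T cells the 37 became 3 in reaction 1 alone, for macrophages against dendritic cells the 36 became 12 in reaction 1 alone, and for the tumor class against macrophages the 10 became 0 with the stricter gate and 5 in reaction 1 alone. Single reactions hold fewer mice and differ from each other in depth, and the cause of the moves was not tested for any setting. Leaving out each mouse in turn gave 0 called members in NK, CD8 T, regulatory T and other T cells, macrophages and monocytes, and was not done in the tumor class, which had 3 mice a group. Without thinning, the shares of cells with 5 or more members were 39.2% in NK cells, 30.6% in CD8 T cells, 16.5% in regulatory T cells, 25.4% in macrophages, 9.65% in monocytes and 8.33% in dendritic cells. The composition test called 0 members in reaction 1 and 13 in reaction 2. The reaction-alone composition, the interaction and the removal of the 15% of cells with the highest Scrublet scores were chosen after seeing the data. The sign of single fold changes was followed over the settings for TOP2A and MKI67 only, and neither changed sign where it passed the test. Medians over members did change sign, among them tumor against macrophage (0.20 to -0.35 without the upper limit) and maraviroc against untreated in macrophages (0.16 to -0.13 in reaction 2 alone), other T cells (-0.14 to 0.97 without untreated replicate 1 of reaction 2) and CD8 T cells (-0.09 to 0.16 without untreated replicate 2 of reaction 2). The medians of all genes under these alternative settings are not given here. Scrublet's own threshold marked 0 of 27952 cells of reaction 1, so it was not used. Depth limits the dendritic and tumor values, which rest on 1008 and 1768 member UMIs. No paired analysis was possible because the replicate numbers of the mice carry no pairing between treatments.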
